A study of Mus musculus with 18 samples.

Results

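The change in the healthy adult lacrimal gland (LG) was taken from 6 of the 18 RNA-seq libraries of the study, the 3 of BALB/c mice at 16 weeks and the 3 of BALB/c mice at 8 weeks, which were chosen by strain and age as labelled. The study compared exorbital LGs of NOR/LtJ mice, a strain that develops autoimmune inflammation of the gland, with those of BALB/cJ mice, its disease-free comparator, at 3, 8 and 16 weeks of age. All mice were male and untreated, and no transgene or induced allele was involved. Each 8- and 16-week library was prepared from glands of 2 to 3 mice pooled together, whereas each 3-week library came from 1 mouse, so the spread between the libraries compared here is a spread between pools. The remaining libraries entered the filter on low counts, the scaling and the estimate of the variation between libraries. They also served to set the same interval in NOR mice and the earlier one in BALB/c mice beside it.

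The exorbital LG is an exocrine gland whose acinar cells secrete most of the protein of the tear film, whose duct cells modify that fluid, and whose myoepithelial cells squeeze it out. A small resident population of macrophages and other leukocytes lies between the acini. Immediate-early genes are transcribed within minutes of a stimulus such as a growth factor, mechanical strain or injury, without new protein synthesis, and encode transcription factors (the Egr, Fos and Jun families), feedback inhibitors of signalling, and secreted matrix proteins and chemokines.

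Total counts ranged from 14460004 to 19548196 at 8 weeks and from 12692650 to 20493076 at 16 weeks, and 3 counts in 1 library corresponded to between 0.142 and 0.236 counts per 1000000 (CPM, scaled by TMM factors). The acinar products prolactin-induced protein (Pip) and lactoferrin (Ltf), and the acinar water channel Aqp5, were present in every library, as the label of the tissue requires. Markers of neighbouring tissues were present as well. Bpifa2, a product of the parotid salivary gland, measured 1117, 299 and 33.3 CPM at 8 weeks and 5.04, 4343 and 214 CPM at 16 weeks, and the summed level of the 16 salivary markers listed ran from 64.5 to 2010 CPM at 8 weeks and from 11.3 to 7386 CPM at 16 weeks. The 12 skeletal muscle markers summed to 47.0, 177 and 8.12 CPM at 8 weeks and to 49.4, 185 and 277 CPM at 16 weeks. Both kinds of marker overlapped between the ages, and their part in the results below was not tested beyond leaving out each library in turn.

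Of 13376 genes tested, 59 (0.441%) were differentially expressed genes (DEGs, adjusted p of at most 0.05 and at least a 2-fold change), and 57 of them (0.426% of the genes tested) were higher at 16 weeks against 2 lower (0.015%). The genes higher at 16 weeks were led by Thbs1, Fgl2, Eml5, Errfi1, Egr1 and Arc, and the 2 lower genes were Smr2 and Gm9897. The log2 fold changes of the 57 ran from 1.02 to 5.91 with a median of 1.63, against a median of 0.03 for all genes tested. For each of the 57, every 16-week library was above every 8-week library, an arrangement that 14.5% of all genes tested showed in that direction and 11.6% in the other. Without the fold cutoff, 236 genes passed (1.76%), 173 higher (1.29%) and 63 lower. That split depended on scaling, since 127 were higher and 123 lower when the 20 most abundant genes were left out of the TMM factors. With library totals alone as the scale, 800 were higher and 11 lower, and the median log2 fold change of all genes was 0.23. Of the 59 DEGs, 23 were called in each of the 6 fits that left out 1 of the libraries compared, 15 in 3 to 5 of these fits, 17 in 1 or 2, and 4 in none. The number of DEGs fell to 37 without 8-week replicate 1, to 33 without 8-week replicate 3 and to 36 without 16-week replicate 3. The plot of change against level shows the 57 higher DEGs spread over low and intermediate levels, and the ribosomal protein genes described further on as a cluster just below 0.

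**Figure D1:**
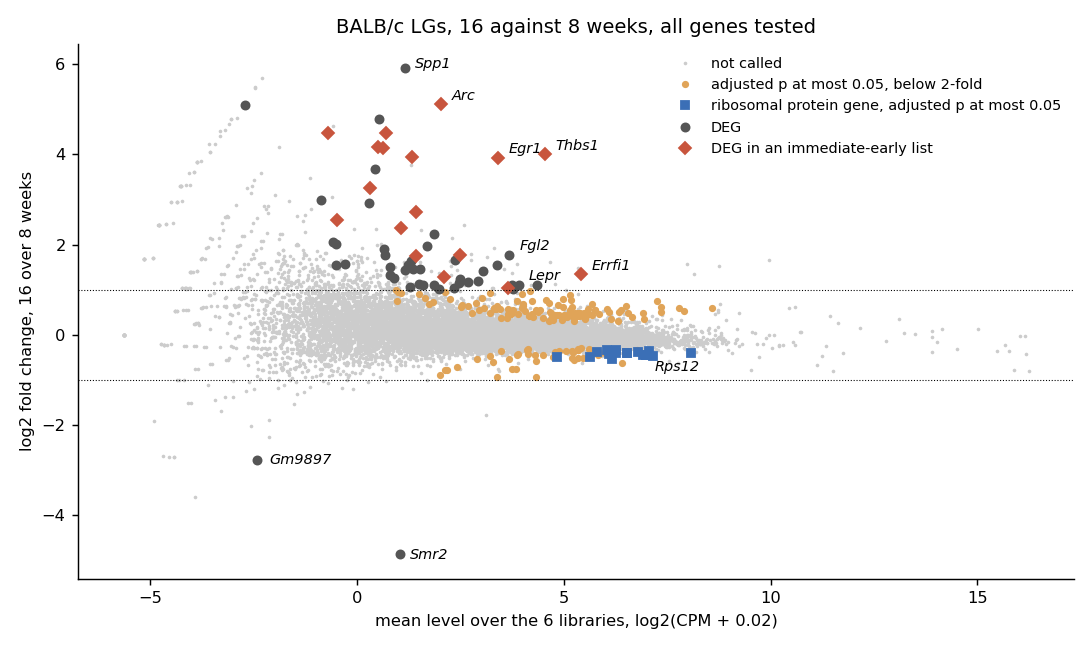
Log2 fold change from 8 to 16 weeks in BALB/c LGs against the mean level over the 6 libraries, as log2(CPM + 0.02), for the 13376 genes tested. Dotted lines mark a 2-fold change, diamonds are DEGs from the immediate-early lists, and squares are the 17 ribosomal protein genes that passed the adjusted p. Above the upper line lie 57 DEGs and below the lower line 2.

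Genes of thrombospondin and monocyte chemokines were among the members of the list of immediate-early secreted and matrix genes that were higher at 16 weeks. Of the 14 members of this list tested, 7 were DEGs, all higher, against 0.426% of all genes tested. The median log2 fold change over the 14 was 1.67. The lists were drawn up with earlier results of these data known, so their counts are a description. Thbs1 (chr2:118111922-118127133, plus strand, in the mm10 gene models of the deposited table), which encodes the matrix glycoprotein thrombospondin-1, an activator of latent TGF-β, measured 2.28, 2.87 and 2.93 CPM at 8 weeks and 42, 61.5 and 28.7 CPM at 16 weeks (log2 fold change 4.01 ± 0.32 (SE), edgeR adjusted p = 5.93e-07). All of the 16-week libraries stood far above the highest 8-week one. Cyr61, a matricellular protein now named CCN1, measured 2.6, 1.89 and 3.1 CPM at 8 weeks and 10.8, 7.46 and 7.59 CPM at 16 weeks (log2 fold change 1.76 ± 0.26 (SE), edgeR adjusted p = 0.00128). The 3 libraries of 16 weeks again stood above those of 8 weeks without overlap. Plaur, the urokinase receptor on the cell surface, measured 0.0786, 0.21 and 0.282 CPM at 8 weeks and 0.903, 0.99 and 1.68 CPM at 16 weeks (log2 fold change 2.55 ± 0.60 (SE), edgeR adjusted p = 0.0178).

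The chemokines of this list followed the same arrangement at lower levels. Ccl2, which attracts monocytes, measured 0.0786, 0.14 and 0.169 CPM at 8 weeks and 0.998, 5.25 and 1.73 CPM at 16 weeks (log2 fold change 4.17 ± 0.92 (SE), edgeR adjusted p = 0.00518), and its highest library was 16-week replicate 2. Ccl7, a monocyte chemokine encoded beside it, measured 0, 0.28 and 0.339 CPM at 8 weeks and 1.09, 3.65 and 1.97 CPM at 16 weeks (log2 fold change 3.25 ± 0.71 (SE), edgeR adjusted p = 0.00965). Cxcl1, which attracts neutrophils, measured 1.65, 0.909 and 1.13 CPM at 8 weeks and 2.71, 2.74 and 6.77 CPM at 16 weeks (log2 fold change 1.76 ± 0.42 (SE), edgeR adjusted p = 0.0395). The first 2 were called in each fit that left out a library, whereas Plaur was lost without 8-week replicate 1, 8-week replicate 3 or 16-week replicate 3, and Cxcl1 was lost in 4 of the 6 fits, those without any 1 of the 8-week libraries or without 16-week replicate 3. The members not called included Ctgf, Hbegf and Lif, at log2 fold changes of 0.85 ± 0.30, 1.07 ± 0.38 and 1.58 ± 0.68 (SE), and Ptgs2, Il6, Cxcl2, Areg, Ereg and Ankrd1 had too few counts to be tested.

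Of 21 immediate-early transcription factors tested, 8 were DEGs, against 0.426% of all genes tested. A ninth, Klf6, passed the adjusted p below 2-fold, and all were higher at 16 weeks. The median log2 fold change over the 21 was 0.47. Egr1, a zinc finger factor induced by growth factors and strain, measured 2.12, 0.839 and 1.07 CPM at 8 weeks and 32.8, 16.8 and 10.1 CPM at 16 weeks (log2 fold change 3.92 ± 0.50 (SE), edgeR adjusted p = 0.000234). Egr2 measured 0.157, 0.0699 and 0.169 CPM at 8 weeks and 5.18, 1.67 and 2.35 CPM at 16 weeks (log2 fold change 4.46 ± 0.82 (SE), edgeR adjusted p = 0.00114). For Egr3 the 8-week libraries held 2 counts in all against 65 at 16 weeks, a ratio of 26.4 with an exact 95% counting interval from 7.03 to 223. In these 3 genes 16-week replicate 1 was the highest library. The 3 AP-1 subunits called were higher by different amounts. Fos measured 0.786, 0.909 and 0.451 CPM at 8 weeks and 4.99, 4.87 and 4.13 CPM at 16 weeks (log2 fold change 2.72 ± 0.41 (SE), edgeR adjusted p = 0.00117), and Fosb measured 0.0786, 0.14 and 0.226 CPM at 8 weeks and 4.09, 3.27 and 1.3 CPM at 16 weeks (log2 fold change 4.14 ± 0.84 (SE), edgeR adjusted p = 0.0037). Jun measured 5.82, 7.13 and 11.5 CPM at 8 weeks and 17.3, 14.4 and 19.1 CPM at 16 weeks (log2 fold change 1.04 ± 0.20 (SE), edgeR adjusted p = 0.00974), with 8-week replicate 3 close to the lowest 16-week library.

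Atf3, a stress-induced partner of the AP-1 family, measured 1.73, 2.45 and 3.16 CPM at 8 weeks and 6.41, 6.62 and 5.24 CPM at 16 weeks (log2 fold change 1.28 ± 0.22 (SE), edgeR adjusted p = 0.00449). Maff, a small Maf factor, measured 0.865, 0.629 and 0.508 CPM at 8 weeks and 2.9, 5.56 and 2.07 CPM at 16 weeks (log2 fold change 2.37 ± 0.38 (SE), edgeR adjusted p = 0.00199). Klf6, a zinc finger factor, measured 27.3, 25.6 and 27.1 CPM at 8 weeks and 47.7, 42.7 and 45.2 CPM at 16 weeks (log2 fold change 0.76 ± 0.10 (SE), edgeR adjusted p = 0.000562). Other members of the same families were not called. Junb measured 18.4, 15.3 and 13.9 CPM at 8 weeks and 24.1, 23.2 and 18.4 CPM at 16 weeks and Nr4a1 18.7, 21 and 22.6 CPM at 8 weeks and 35.2, 27.7 and 26.3 CPM at 16 weeks, both with the ages apart but adjusted p of 0.0953 and 0.0879 by edgeR. Jund, Klf4, Cebpb and Cebpd had log2 fold changes between -0.12 and -0.01, and Nr4a2 was lower in every 16-week library without passing the test (log2 fold change -0.42 ± 0.15 (SE), edgeR adjusted p = 0.164). Egr3 lost its call without any 1 of the 8-week libraries or without 16-week replicate 1, and Jun without 8-week replicate 1, 8-week replicate 2 or 16-week replicate 3. The plot of levels by library shows the ages apart for each of the 15 genes drawn.

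**Figure D2:**
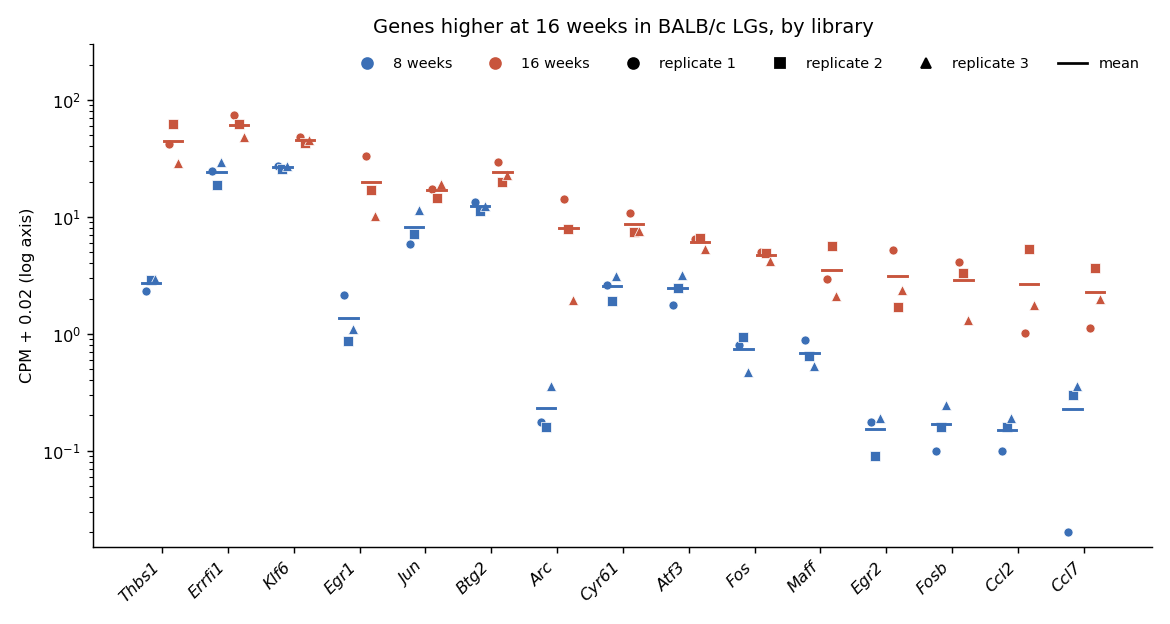
Levels of 15 genes higher at 16 weeks, as CPM + 0.02 on a log axis, in the 3 libraries of 8 weeks (blue) and the 3 of 16 weeks (red) of BALB/c LGs, where symbols mark the replicate and bars the group mean. In each gene all 3 of the 16-week libraries lie above the 8-week ones, by the widest margin in Thbs1 among the genes above 2 CPM at 8 weeks.

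The list of immediate-early feedback and RNA-decay genes also holds genes of other roles, such as Arc. Among its 31 members tested, 2 were DEGs, against 0.426% of all genes tested, and 3 more passed the adjusted p. All were higher, and the median log2 fold change over the list was 0.48. The number of DEGs was 4 without 8-week replicate 1, without 16-week replicate 3, under DESeq2, with no filter on low counts and with only the libraries compared, and the median was 0.32 without 16-week replicate 2. Errfi1, which encodes an inhibitor of the EGF receptor, measured 24.4, 18.7 and 29.1 CPM at 8 weeks and 73.9, 61.7 and 47.8 CPM at 16 weeks (log2 fold change 1.34 ± 0.16 (SE), edgeR adjusted p = 0.000234). Arc, best known as a synaptic capsid-forming protein, measured 0.157, 0.14 and 0.339 CPM at 8 weeks and 14.1, 7.76 and 1.92 CPM at 16 weeks (log2 fold change 5.11 ± 0.78 (SE), edgeR adjusted p = 0.000234), a wide range at 16 weeks. Btg2, an antiproliferative RNA-decay cofactor, had a log2 fold change of 0.98 ± 0.16 (SE), the ERK phosphatase Dusp6 one of 0.94 ± 0.16, and Zfp36, which encodes the RNA-destabilizing tristetraprolin, one of 0.65 ± 0.14, with edgeR adjusted p of 0.00313, 0.00462 and 0.0187. Zfp36 did not pass without 8-week replicate 1, 8-week replicate 3, 16-week replicate 1 or 16-week replicate 2. Phlda1, Sgk1, Dusp1 and Socs3 were above all 8-week libraries in every 16-week library but had adjusted p between 0.055 and 0.15 by edgeR. Gadd45g, Ppp1r15a and Tiparp had log2 fold changes below 0. In all, 17 of the 57 higher DEGs stood in the 3 immediate-early lists, which hold 21, 31 and 14 of the 13376 genes tested. Of the 17, 13 were called whichever library was left out.

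The promoters shown are those of immediate-early genes called as DEGs, all of them higher at the later age. Their shared direction largely follows from that choice, and the later library in which each was highest differed between genes. Shared regulation was not tested. RefSeq windows on GRCm38.p6, from 250 bases before to 50 after the start of transcription, were searched for 9 of these DEGs. Egr1 was not searched, and Thbs1, Arc, Cyr61, Ccl2, Ccl7 and Egr3 had no entry. For a gene with several windows the one nearest the start of the deposited gene model was used. Capitals mark matches to the cAMP response element (TGACGTCA), the AP-1 site (TGACTCA) and the CArG box of serum response factor, each searched on both strands, and to TATAAA on the strand of the gene. Of the DEGs searched, the 4 with the smallest p were these, printed over the 250 bases before the start, with Errfi1 at chr4:150854820-150855069, plus strand, Egr2 at chr10:67537619-67537868, plus strand, Fos at chr12:85473640-85473889, plus strand and Maff at chr15:79347270-79347519, plus strand.
Errfi1: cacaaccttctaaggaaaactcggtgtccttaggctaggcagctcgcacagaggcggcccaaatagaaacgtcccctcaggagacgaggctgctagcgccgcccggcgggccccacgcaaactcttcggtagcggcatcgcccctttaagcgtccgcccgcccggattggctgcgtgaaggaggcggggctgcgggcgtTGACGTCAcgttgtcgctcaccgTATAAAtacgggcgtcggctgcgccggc
Egr2: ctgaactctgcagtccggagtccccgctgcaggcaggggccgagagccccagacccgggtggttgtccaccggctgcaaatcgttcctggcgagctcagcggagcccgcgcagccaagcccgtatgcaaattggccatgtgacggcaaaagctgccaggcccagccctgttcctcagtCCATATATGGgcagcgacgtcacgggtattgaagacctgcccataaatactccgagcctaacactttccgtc
Fos: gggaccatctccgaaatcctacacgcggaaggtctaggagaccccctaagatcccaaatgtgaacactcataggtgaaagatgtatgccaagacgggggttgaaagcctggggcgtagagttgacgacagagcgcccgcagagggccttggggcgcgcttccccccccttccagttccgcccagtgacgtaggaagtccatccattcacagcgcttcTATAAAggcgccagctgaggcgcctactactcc
Maff: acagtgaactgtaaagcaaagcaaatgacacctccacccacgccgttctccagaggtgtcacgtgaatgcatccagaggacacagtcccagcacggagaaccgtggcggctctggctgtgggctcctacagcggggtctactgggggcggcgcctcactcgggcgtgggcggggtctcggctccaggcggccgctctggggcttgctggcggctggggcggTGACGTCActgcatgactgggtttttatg
The cAMP response element stood in 2 of the 9 windows (Errfi1 and Maff) and in 1.79% of all 32851 windows. The CArG box was found in 1 of 9 (Egr2) and 1.63% of all, TATAAA in 2 of 9 (Errfi1 and Fos) and 8.32%, and the AP-1 site in 1 of 9 (Plaur) and 5.20%. The windows of Fosb, Atf3, Jun and Cxcl1 held none of these letters. These are matches of letters and not measured binding sites.

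Several DEGs outside these lists encode proteins of matrix, adhesion and stress responses. They were Tnfaip6, which encodes a hyaluronan-binding protein, Ptx3, a long pentraxin, Tnfrsf12a, the receptor of TWEAK, and Itga5, the α subunit of the fibronectin receptor. Tnfrsf12a measured 0.315, 0.14 and 0.339 CPM at 8 weeks and 1.38, 3.12 and 1.87 CPM at 16 weeks (log2 fold change 2.92 ± 0.55 (SE), edgeR adjusted p = 0.00449), and Itga5 measured 2.6, 2.73 and 2.09 CPM at 8 weeks and 7.98, 9.67 and 5.91 CPM at 16 weeks (log2 fold change 1.66 ± 0.24 (SE), edgeR adjusted p = 0.00137). Tnfaip6 measured 0.157, 0 and 0.113 CPM at 8 weeks and 2.8, 4.26 and 1.15 CPM at 16 weeks (log2 fold change 4.79 ± 1.03 (SE), edgeR adjusted p = 0.00257) and Ptx3 0.0786, 0.35 and 0.113 CPM at 8 weeks and 1.71, 4.49 and 1.2 CPM at 16 weeks (log2 fold change 3.67 ± 0.82 (SE), edgeR adjusted p = 0.00965). Both were highest in 16-week replicate 2. Their means in NOR were 0.182 and 0.377 CPM at 8 weeks and 0.176 and 0.315 CPM at 16 weeks. The low-count filter kept both, like Fosb above, through the 16-week BALB/c group alone. For these genes, passing the filter and being called therefore rest on the same libraries. Cdkn1a, the cell cycle inhibitor p21, and Mt2, a metallothionein, were the 2 DEGs among 10 glucocorticoid-induced genes, against 0.426% of all genes tested. Cdkn1a measured 0.55, 0.42 and 0.959 CPM at 8 weeks and 3.28, 1.45 and 2.64 CPM at 16 weeks (log2 fold change 1.91 ± 0.36 (SE), edgeR adjusted p = 0.00656) and Mt2 1.26, 0.839 and 1.58 CPM at 8 weeks and 4.99, 7.38 and 5.53 CPM at 16 weeks (log2 fold change 2.24 ± 0.44 (SE), edgeR adjusted p = 0.00965). Over the 10, 8 had log2 fold changes above 0 (median 0.625), against 7422 of all 13376 genes tested. In 5 of them every 16-week library was above every 8-week one, against 14.5% of all genes tested. Fkbp5 and Tsc22d3 had log2 fold changes of 0.10 ± 0.17 and -0.13 ± 0.15 (SE) and overlapped between the ages. The heat shock list had 1 DEG of 14, against 0.426% of all genes tested. It was Hspa1a (log2 fold change 1.97 ± 0.42 (SE), edgeR adjusted p = 0.020), whose highest library at 8.75 CPM was 16-week replicate 2 and which was not called without that library or without 8-week replicate 1 or 2. Ptx3 was not called without 8-week replicate 1 or 8-week replicate 3, and the glucocorticoid and heat shock lists were otherwise without calls.

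Leukocyte genes were called one at a time rather than as cell type lists. Fgl2, a fibrinogen-like protein of macrophages and T cells, measured 7.16, 4.61 and 5.64 CPM at 8 weeks and 18, 22.7 and 18.7 CPM at 16 weeks (log2 fold change 1.77 ± 0.17 (SE), edgeR adjusted p = 1.69e-05) and was called whichever library was left out. Gp49a, which encodes an immunoglobulin-like receptor of myeloid cells, measured 0.629, 0.769 and 0.733 CPM at 8 weeks and 2.38, 2.59 and 2.4 CPM at 16 weeks (log2 fold change 1.77 ± 0.28 (SE), edgeR adjusted p = 0.00233), and its inhibitory paralogue Lilrb4 measured 1.65, 0.839 and 1.52 CPM at 8 weeks and 2.57, 4.49 and 4.08 CPM at 16 weeks (log2 fold change 1.45 ± 0.30 (SE), edgeR adjusted p = 0.0157). The sequences of Gp49a and Lilrb4 are nearly identical, so reads may be split between them and the change of each alone is uncertain. Il1b, Tnf and Cd83, an inflammatory cytokine pair and a surface marker of activated antigen-presenting cells, had log2 fold changes of 1.51 ± 0.36, 2.99 ± 0.83 and 1.43 ± 0.36 (SE; edgeR adjusted p = 0.0379, 0.0267 and 0.0443). Mpeg1, the macrophage pore-forming protein perforin-2, measured 10.2, 7.34 and 9.7 CPM at 8 weeks and 14.2, 14.8 and 26 CPM at 16 weeks (log2 fold change 1.02 ± 0.25 (SE), edgeR adjusted p = 0.0436). Spp1, which encodes osteopontin, rested on 16-week replicate 3, at 0.618, 0.228 and 12.2 CPM, against 3 counts over the 8-week libraries (ratio 73.2, exact 95% counting interval 24.8 to 357), and was not called without that library or without any 1 of the 8-week libraries. Il1b and Mpeg1 kept their calls in 1 of the 6 fits that left out a library, that without 16-week replicate 1, and Cd83 in none. Lilrb4 lost its call without replicate 2 or 3 of either age, and Tnf without 8-week replicate 1, 8-week replicate 3 or 16-week replicate 3.

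None of the 12 macrophage markers was called, although all 12 had log2 fold changes above 0 (median 0.30). Of all 13376 genes tested, 7422 were above 0, and members of 1 list can shift together with a single library. Their summed level was 145, 120 and 172 CPM at 8 weeks and 179, 164 and 225 CPM at 16 weeks, so that the lowest 16-week library lay below the highest 8-week one. Lyz2 measured 37.8, 29.8 and 42.8 CPM at 8 weeks and 50, 46.4 and 75.1 CPM at 16 weeks and Cd68 2.83, 2.94 and 4.06 CPM at 8 weeks and 5.75, 5.25 and 6.53 CPM at 16 weeks, with edgeR adjusted p of 0.164 and 0.0963. The 7 dendritic cell markers were all above 0 with none called, led by Itgax (log2 fold change 1.51 ± 0.45 (SE), edgeR adjusted p = 0.0757). Of 10 T-cell markers none was called, their summed level stayed between 0.846 and 2.59 CPM, and Cd3e and Cd8b1 had no count in 5 of the 6 libraries. The 8 B-cell markers, of which none was called, summed to 0.551, 0.420 and 0.734 CPM at 8 weeks and to 0.903, 0.685 and 7.01 CPM at 16 weeks, so their median log2 fold change of 2.60 fell to 0.46 without 16-week replicate 3. The same library was the highest in 20 of the 21 interferon-stimulated genes, a list with 20 changes above 0 and none called, and without it their median fell from 0.52 to 0.09. In bulk RNA from a gland, a higher level cannot be assigned to more cells of a type or to more RNA per cell.

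Some DEGs were higher at each age than at the one before. Of the 57 higher DEGs, 13 were also DEGs higher at 8 than at 3 weeks, against 4.37% of all genes tested, 3 were lower (Cyr61, Maff and Gins2), against 2.58%, and 41 were not called in that comparison, which shares the 8-week libraries with the one described here. Lepr, which encodes the leptin receptor, measured 0.93, 0.807 and 0.57 CPM at 3 weeks, 7.71, 10.8 and 9.87 CPM at 8 weeks and 22.6, 18.7 and 20.1 CPM at 16 weeks. The log2 fold change from 8 to 16 weeks was 1.11 ± 0.14 (SE; edgeR adjusted p = 0.000424) and that from 3 to 8 weeks 3.60 ± 0.24. Nrg1, the growth factor neuregulin-1 and a ligand of ErbB receptors, measured 1.04, 0.726 and 0.886 CPM at 3 weeks, 4.4, 7.9 and 3.72 CPM at 8 weeks and 14.2, 14.4 and 18.3 CPM at 16 weeks (log2 fold change 1.56 ± 0.22 (SE), edgeR adjusted p = 0.00128). Xlr4c, an X-linked lymphocyte-regulated gene, measured 0.766, 0.646 and 1.01 CPM at 3 weeks, 4.33, 4.54 and 4.96 CPM at 8 weeks and 12, 10.4 and 9.61 CPM at 16 weeks (log2 fold change 1.20 ± 0.17 (SE), edgeR adjusted p = 0.00128). In these genes no library of one age overlapped those of the next.

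Serpinb11, a clade B serpin, measured 3.39, 3.71 and 5.95 CPM at 3 weeks, 13, 14.3 and 11.6 CPM at 8 weeks and 23, 29.2 and 31.6 CPM at 16 weeks (log2 fold change 1.11 ± 0.20 (SE), edgeR adjusted p = 0.00766). Eml5, which encodes a microtubule-associated protein, rose by less than 2-fold from 3 to 8 weeks (0.79 ± 0.14 on the log2 scale) and then measured 7.16, 8.88 and 9.14 CPM at 8 weeks and 17.4, 19 and 18.4 CPM at 16 weeks (log2 fold change 1.11 ± 0.13 (SE), edgeR adjusted p = 0.000234). Cdkl1, a cyclin-dependent kinase-like gene, Olfm4, which encodes a secreted glycoprotein of glandular epithelia, and LOC622124 were at or near 0 at 3 weeks. They reached means of 1.19, 1.53 and 4.42 CPM at 8 weeks and of 3.47, 4.15 and 12 CPM at 16 weeks. Lepr was lost without 8-week replicate 1, LOC622124 without 16-week replicate 2, Serpinb11 and Cdkl1 without 8-week replicate 3 or 16-week replicate 3, and Olfm4 in each fit without 1 library except that without 8-week replicate 1. The plot of these genes by age shows a steady order of the 3 ages. By contrast, Thbs1 measured 3.23, 3.55 and 2.98 CPM and Arc 0.0547, 0.0807 and 0.127 CPM at 3 weeks, near their 8-week levels.

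**Figure D3:**
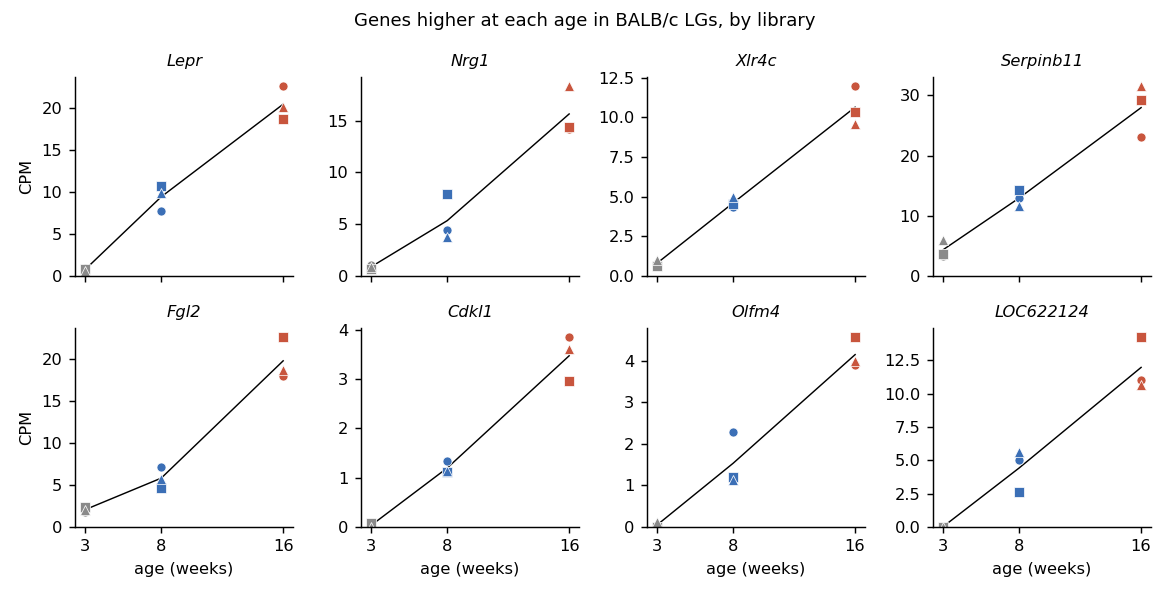
CPM of 8 genes in each BALB/c library at 3, 8 and 16 weeks (symbols mark the replicate, lines join the group means). For all 8 the 16-week libraries lie above the 8-week ones, which lie above the 3-week ones.

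The remaining higher DEGs belonged to no list and had mixed roles. Fhl2, a LIM-domain cofactor, measured 0.236, 0.35 and 0.169 CPM at 8 weeks and 1.24, 0.913 and 1.01 CPM at 16 weeks (log2 fold change 2.07 ± 0.46 (SE), edgeR adjusted p = 0.0171), and Rnd3, an atypical small GTPase, 1.89, 1.47 and 1.3 CPM at 8 weeks and 2.99, 3.35 and 3.36 CPM at 16 weeks (log2 fold change 1.07 ± 0.23 (SE), edgeR adjusted p = 0.0203). Hdc, the enzyme that makes histamine, measured 1.18, 1.05 and 1.02 CPM at 8 weeks and 2.23, 2.82 and 2.74 CPM at 16 weeks (log2 fold change 1.26 ± 0.28 (SE), edgeR adjusted p = 0.0225), while 0 of 5 mast cell markers tested were called. Dna2, a nuclease of DNA replication, had a log2 fold change of 1.32 ± 0.27 (SE), and Gins2, a subunit of the replicative helicase complex, went from no count at 8 weeks to 15 counts at 16 weeks, at least 4.07-fold higher against a floor of 3 counts over the group. The 21 cell cycle genes had a median of 0.08 and no call. Aoc2, Avil, Slc25a18 and Slc9a5, which encode an amine oxidase, the actin-binding advillin, a mitochondrial carrier and a sodium-proton exchanger, lay between 1.10 and 1.58 on the log2 scale. The low-count filter kept Avil and Slc25a18 through the 16-week BALB/c group alone. Passing the filter and being called therefore rest on the same libraries for these 2 genes as well. The long non-coding Kcnq1ot1, which overlaps Kcnq1 on the opposite strand and so cannot be told apart from it in these counts, measured 2.67, 4.41 and 2.82 CPM at 8 weeks and 6.98, 10 and 6.73 CPM at 16 weeks (log2 fold change 1.25 ± 0.27 (SE), edgeR adjusted p = 0.0201). The last were Gpr137b-ps, A430107O13Rik, Gm996, 4930565N06Rik and Gm4349, between 1.02 and 2.01. Of the fits that left out a library, Hdc kept its call in 1, that without 16-week replicate 1, Avil and Gm4349 kept theirs in none, and Gins2 lost it without 8-week replicate 3. Fhl2 and Gm996 lost theirs without replicate 1 or 3 of either age, and Rnd3 without replicate 2 or 3 of either. Dna2 and Kcnq1ot1 lost theirs without 8-week replicate 1, 8-week replicate 3 or 16-week replicate 2, and Dna2 also without 16-week replicate 3. Aoc2, Slc9a5 and 4930565N06Rik were called in 1 fit, that without 8-week replicate 2, and Slc25a18 in 1, that without 8-week replicate 3. Gpr137b-ps lost its call without 8-week replicate 1 or 3, and A430107O13Rik without 8-week replicate 3 or 16-week replicate 1.

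Few structural genes of the gland were called. Among 9 myoepithelial and smooth muscle markers tested, the basal keratin Krt17 was a DEG at 3.46, 3.57 and 3.27 CPM at 8 weeks and 6.18, 6.24 and 10.4 CPM at 16 weeks (log2 fold change 1.16 ± 0.22 (SE), edgeR adjusted p = 0.00974), and Krt14 passed the adjusted p at 11.4, 9.65 and 11.8 CPM at 8 weeks and 14.7, 16.1 and 17.7 CPM at 16 weeks (log2 fold change 0.56 ± 0.11 (SE), edgeR adjusted p = 0.00974). The 1 DEG of 9 stands against 0.426% of all genes tested. Of the 9, 8 had log2 fold changes above 0 (median 0.22). In 5 every 16-week library was above every 8-week one, against 14.5% of all genes tested. The listed markers summed to 167.5 to 184.3 CPM at 8 weeks and 189.4 to 206.7 CPM at 16 weeks. Acta2, Krt5 and Myh11, further contractile and basal markers of that list, had log2 fold changes of 0.12 ± 0.11, 0.13 ± 0.14 and -0.09 ± 0.10 (SE) and none was called. Both keratins lost their calls without 16-week replicate 3, and Krt17 also without 8-week replicate 3. Of 10 endothelial markers 1 passed, against 1.29% of all genes tested that passed as higher. It was Vwf, the clotting factor carrier of endothelium, at 11.9, 12.7 and 12.9 CPM at 8 weeks and 17.6, 16.7 and 25.4 CPM at 16 weeks (log2 fold change 0.68 ± 0.16 (SE), edgeR adjusted p = 0.041). Vwf did not pass without 16-week replicate 3 (edgeR adjusted p = 0.243) or without any 1 of the 8-week libraries. Pecam1, Cdh5 and Kdr lay between -0.19 and 0.14 on the log2 scale. Timp3, an inhibitor of metalloproteinases, Vegfa, the endothelial growth factor, and Abca1, a cholesterol exporter, passed below 2-fold at 0.58 ± 0.11, 0.47 ± 0.09 and 0.48 ± 0.08 (SE; edgeR adjusted p = 0.00821, 0.0162 and 0.00498), each as 1 called member of its list. Vegfa did not pass without 8-week replicate 1, 16-week replicate 1 or 16-week replicate 2. Of 30 collagen and matrix genes Timp3 was the 1 called, against 1.29% of all genes tested that passed as higher. Timp1 and Tnc, at log2 fold changes of 3.06 ± 1.00 and 2.34 ± 0.94 (SE), overlapped between the ages.

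The 13 lacrimal acinar and duct markers had 0 calls and a median log2 fold change of 0.02. The secreted products themselves took a smaller share of the counts in each 16-week library, a share that was not tested. The 21 exocrine products in the table, which comprise the Esp peptides, the androgen-binding proteins (Scgb1b and Scgb2b), Lcn11, Pip, Mup4 and others, took 55.3%, 54.7% and 55.9% of all counts at 8 weeks and 52.4%, 50.0% and 50.1% at 16 weeks. Of these, 17 had log2 fold changes below 0 (median -0.32), against 5938 of all 13376 genes tested. Only 1 passed the adjusted p as lower, against 0.471% of all genes tested, and none was a DEG. Esp23, listed under an older symbol, measured 29.4, 17.6 and 31.7 CPM at 8 weeks and 13.5, 14.5 and 13.1 CPM at 16 weeks (log2 fold change -0.94 ± 0.21 (SE), edgeR adjusted p = 0.0253). Scgb2b2 measured 112484, 86226 and 100069 CPM at 8 weeks and 58164, 59881 and 52222 CPM at 16 weeks (log2 fold change -0.81 ± 0.22 (SE), edgeR adjusted p = 0.0609), and Scgb1b2 82472, 70098 and 76181 CPM at 8 weeks and 48783, 42993 and 41530 CPM at 16 weeks (log2 fold change -0.78 ± 0.22 (SE), edgeR adjusted p = 0.0791), with each 16-week library below each 8-week library in both. Mup4 and Scgb2b7 overlapped between the ages, at log2 fold changes of -0.01 ± 0.27 and -0.04 ± 0.19 (SE). Esp23 kept its call in 1 of the 6 fits without a library, that without 8-week replicate 2, and with only the 6 libraries in the fit 10 of the 21 products passed. Members of the Scgb and Esp families are close paralogues, so reads shared between copies were not counted and single members are uncertain.

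Smr2, an androgen-regulated salivary gland gene, was the DEG with the largest fall (chr5:88086556-88109053, plus strand, mm10). It measured 5.11, 5.73 and 0.959 CPM at 8 weeks and 0.285, 0 and 0.048 CPM at 16 weeks (log2 fold change -4.86 ± 1.00 (SE), edgeR adjusted p = 0.00965) and was listed at 0 in all 3-week BALB/c libraries. The part of salivary tissue in this change was not tested. Smr2 passed the low-count filter through the 8-week group alone. Its call was lost without 16-week replicate 3, and DESeq2 gave it no adjusted p. Gm9897 went from 13 counts over the 8-week libraries to 2 over those of 16 weeks, a ratio of 0.125 (exact 95% counting interval 0.0137 to 0.553), and was called in none of the fits without a library.

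Components of the ribosome were among the genes lower at 16 weeks by less than 2-fold. Of 75 ribosomal protein genes tested, 73 had log2 fold changes below 0, against 5938 of all 13376 genes tested. The median was -0.28, and 17 passed the adjusted p, all lower, among the 63 genes (0.471% of those tested) that did so. Rps12 measured 152, 138 and 150.4 CPM at 8 weeks and 115, 97 and 112 CPM at 16 weeks (log2 fold change -0.44 ± 0.08 (SE), edgeR adjusted p = 0.0067), and Rps3a measured 156, 135 and 149 CPM at 8 weeks and 109.9, 106 and 109 CPM at 16 weeks (log2 fold change -0.44 ± 0.08 (SE), edgeR adjusted p = 0.00766). Rps7 had a log2 fold change of -0.36 ± 0.08, Rpl12 of -0.47 ± 0.11 and Rps3 of -0.40 ± 0.10 (SE; edgeR adjusted p = 0.0205, 0.0316 and 0.0379). Each of these was lower in all 3 of the 16-week libraries. Rps12 did not pass without 16-week replicate 2, Rps3a without 8-week replicate 1, Rpl12 without any 1 library other than 8-week replicate 2 and 16-week replicate 1, and Rps7 and Rps3 without any 1 other than 8-week replicate 2. The number passing depended on the setting, with 26 when the 20 most abundant genes were left out of the scale and 36 under DESeq2. It was 11 without 16-week replicate 1 and 2 or 3 without 8-week replicate 1, 8-week replicate 3, 16-week replicate 2 or 16-week replicate 3, and 0 on library totals, where the median of the list was -0.08 against 0.23 for all genes. Most of these genes have processed pseudogenes, and reads that map to several places were not counted.

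Other genes with small p lower at 16 weeks were C130074G19Rik, Arpc5l, Hdhd3, Rangap1 and Rassf10, at log2 fold changes between -0.89 and -0.37. Among those of highest level, Pik3r1, the regulatory subunit of PI3-kinase, passed at -0.37 ± 0.08 (SE; edgeR adjusted p = 0.0298). The genes of highest level that rose were Ddx17, an RNA helicase, Leng8, Baiap2l1, Ogt, the O-GlcNAc transferase, and Col7a1. Ddx17 measured 274, 346 and 290.1 CPM at 8 weeks and 449, 459 and 467 CPM at 16 weeks (log2 fold change 0.60 ± 0.12 (SE), edgeR adjusted p = 0.0136) and Leng8 108, 155 and 124 CPM at 8 weeks and 198, 196 and 198 CPM at 16 weeks (log2 fold change 0.62 ± 0.12 (SE), edgeR adjusted p = 0.0125). In both, 8-week replicate 2 was the highest of its age, and neither passed without 8-week replicate 1, 8-week replicate 3 or 16-week replicate 3. Of the others, Baiap2l1 did not pass without 8-week replicate 1, 8-week replicate 3, 16-week replicate 1 or 16-week replicate 2, Ogt without 8-week replicate 1, 8-week replicate 3, 16-week replicate 2 or 16-week replicate 3, and Col7a1 without any 1 library other than 8-week replicate 2 or with the length trend removed. Among the lower genes, Arpc5l did not pass without replicate 3 of either age, Hdhd3 without 8-week replicate 3, 16-week replicate 1 or 16-week replicate 3, Rangap1 without any 1 library other than 8-week replicate 1 and 16-week replicate 2, and Rassf10 without any 1 other than 8-week replicate 2 and 16-week replicate 1. Pik3r1 passed in none of the fits that left out a library. Gene length moved with direction over all genes tested. The median log2 fold change was -0.07 in the 2676 genes of shortest exon length and 0.11 in the 2675 of longest, and of the genes that passed the adjusted p, 21 rose and 38 fell among the shortest while 71 rose and 4 fell among the longest. When each library's trend with length was removed, an alternative chosen after seeing the data, 152 genes passed without the fold cutoff and 53 DEGs remained, all among the 59, while the count of ribosomal protein genes fell to 4. The part of length in these results was not tested further.

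The other lists held few or no calls, as the plot of lists shows. None of the 16 endoplasmic reticulum stress genes, 21 cell cycle genes, 18 cholesterol synthesis genes, 7 genes of MHC class II presentation, 16 further chemokines or 11 complement and acute-phase genes passed. The same held for 21 genes of secretion and fluid transport, for 16 replication-dependent histones and for the markers of adipocytes, erythroid cells, plasma cells, mast cells, neutrophils, fibroblasts and nerve. The MHC class II genes, with Cd74 at 55.3, 53 and 62.5 CPM at 8 weeks and 58.2, 60.5 and 88.4 CPM at 16 weeks, had a median of 0.23 that was -0.14 without 16-week replicate 3. None of the 16 clock genes was called. Arntl, the core activator of the circadian clock, measured 6.92, 5.45 and 4.34 CPM at 8 weeks and 15.1, 4.41 and 8.22 CPM at 16 weeks, and Dbp, which peaks in the opposite phase, 8.41, 6.99 and 7.0 CPM at 8 weeks and 2.95, 7.76 and 6.73 CPM at 16 weeks, with 16-week replicate 1 apart from the other libraries in both genes. Per1, Per2, Per3 and Nr1d1 had log2 fold changes of 0.14 ± 0.21, 0.23 ± 0.31, 0.26 ± 0.20 and 0.21 ± 0.16 (SE). The time of day of collection was not among the labels.

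**Figure D4:**
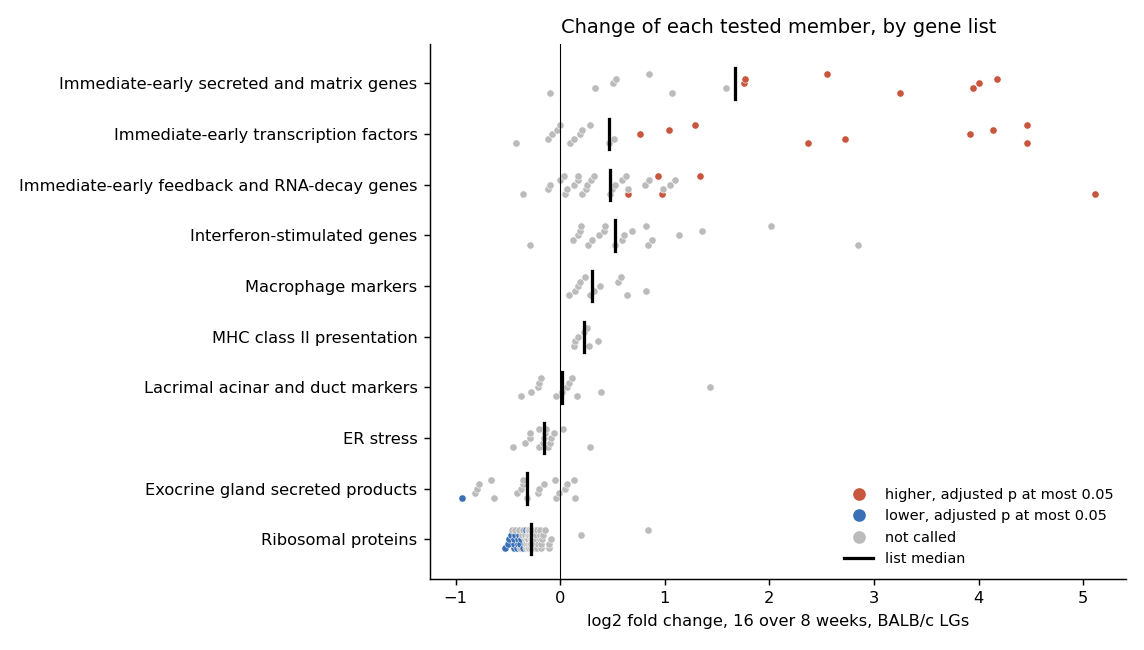
Log2 fold change from 8 to 16 weeks in BALB/c LGs of each tested member of 10 gene lists, with the list median as a black bar and members that passed the adjusted p in red (higher) or blue (lower). The immediate-early lists reach above 4, while the ribosomal protein genes lie in a narrow band with a median of -0.28.

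The same interval was measured in NOR LGs in 6 other libraries, whose titles name the strain NOD while their genotype label and the study's methods give NOR/LtJ, so that every NOR value here rests on that label. Of the 57 higher DEGs, 45 had log2 fold changes above 0 in NOR (median 0.52) and 11 were DEGs there too, against 8.88% of all genes tested that were DEGs higher in NOR, namely Egr1, Egr2, Egr3, Cdkn1a, Cdkl1, Plaur, Spp1, Il1b, Olfm4, Cd83 and Serpinb6b. A test of the difference between the strains (interaction) passed the adjusted p for 23 of the 57, and in all 23 the NOR change was the smaller. The 57 were chosen for a rise in the same BALB/c libraries that enter this test, so that direction was largely set by the choice and the count is a description. Of all genes tested, 1071 (8.01%) passed that test, 611 of them (4.57%) with the lower change in NOR, and 381 (2.85%) differed by at least 2-fold as well. Thbs1 measured 17.4 ± 5.6 CPM at 8 weeks and 14.6 ± 3.67 CPM at 16 weeks (SD, n = 3) in NOR, a log2 fold change of -0.26 ± 0.25 (SE), and the difference from BALB/c was -4.27 ± 0.40 (edgeR adjusted p = 2.01e-05). The 8-week mean of BALB/c was 2.69 CPM, and the gap between the strains at that age was not tested here. Fgl2 measured 37.9 ± 5.39 CPM at 8 weeks and 43.2 ± 2.19 CPM at 16 weeks (SD, n = 3) in NOR (difference in log2 fold change -1.58 ± 0.22, edgeR adjusted p = 0.000816). Jun measured 24.5 ± 3.26 CPM at 8 weeks and 16.7 ± 0.382 CPM at 16 weeks (SD, n = 3) in NOR, and Errfi1 17.3 ± 1.57 CPM at 8 weeks and 17.6 ± 1.49 CPM at 16 weeks (SD, n = 3), with differences of -1.59 ± 0.27 and -1.32 ± 0.23 (SE; edgeR adjusted p = 0.00292 and 0.00347). In NOR, Errfi1 was not called, and Jun fell by 0.55 on the log2 scale (edgeR adjusted p = 0.0236).

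Egr2 and Plaur showed no called difference, with NOR log2 fold changes of 2.31 ± 0.54 and 2.55 ± 0.43 (SE). The differences were -2.15 ± 0.98 and 0.00 ± 0.73 (SE), errors too wide to say that the strains acted alike. Lepr and Nrg1 had NOR log2 fold changes of 0.74 ± 0.17 and 0.72 ± 0.34 (SE) and differences of -0.38 ± 0.22 and -0.84 ± 0.41, which did not pass. Ribosomal protein genes had a median log2 fold change of 0.07 in NOR. For 24 of the 75 the difference between the strains passed the adjusted p, each with the lower value in BALB/c, against 460 of the 13376 genes tested. Of the members of the immediate-early lists, 6 of 21 transcription factors, 6 of 31 on the feedback and RNA-decay list and 6 of 14 secreted and matrix genes had a lower change in NOR by this test, against 4.57% of all genes tested. A higher one was found for 1 each of the first 2 lists, Klf2 and Ier5. These lists and the ribosomal one are described for their BALB/c change, which enters the difference, so these counts are a description too. Fosb, Egr3, Btg2, Dusp6 and Zfp36, called in BALB/c, did not pass it. Clock genes, without a call in BALB/c, moved in NOR over this interval. The 5 of the Arntl phase had a median log2 fold change of 1.015 in NOR, and 3 were DEGs higher, against 8.88% of all genes tested. The 11 of the opposite phase had a median of -1.11. For 7 of these 11 the change was lower in NOR by the strain test, against 4.57% of all genes tested. The part of collection time in the strain differences was not tested. The plot of both strains shows most of the DEGs below the line of equal change.

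**Figure D5:**
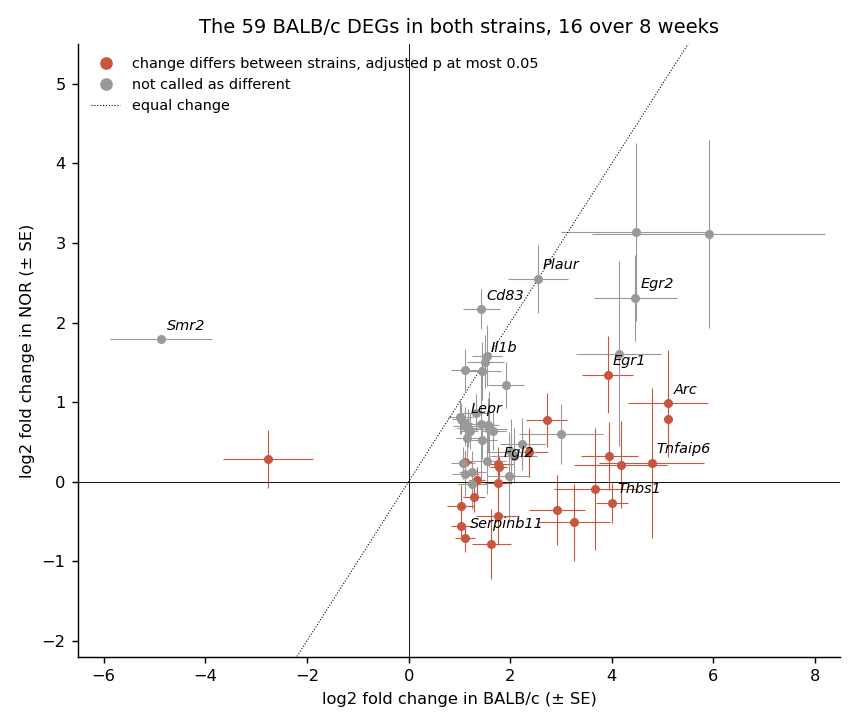
Log2 fold change from 8 to 16 weeks in NOR against that in BALB/c, with standard errors where both ages had counts, for the 59 BALB/c DEGs, in red where the change differed between the strains at an adjusted p of at most 0.05. The dotted line marks equal change, and Thbs1 lies at 4.01 in BALB/c and -0.26 in NOR.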

How the data were processed

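Exorbital LGs were profiled by poly(A)-selected, stranded RNA-seq with single reads of 50 bases. Per the labels and the study's methods, the authors aligned reads with HISAT2 to mm10 and deposited raw counts per gene from featureCounts 1.6.2, over exons of the UCSC gene models, with no strand option and without multimapping or overlapping reads, so near-identical copies lose reads and a gene cannot be told apart from an antisense partner. The deposited counts of all 18 libraries were fitted with edgeR 4.0.16 (R 4.3.3) in one model with a mean for each strain and age. Of 23337 genes, 4978 had no counts and 13376 passed filterByExpr. The filter and the TMM factors used all 18 libraries, so a gene could be tested through any 1 group in which it was high. TMM factors, glmQLFit, glmQLFTest and Benjamini-Hochberg adjustment over all genes tested were used, and a DEG had to reach 1 on the log2 scale, in either direction, with an adjusted p no higher than 0.05. Standard errors came from the fitted information and are not given for a group with no counts. P-values measure the spread between pooled libraries. Library totals (12692650 to 20493076) place 3 counts at 0.142 to 0.236 CPM, and counting intervals cover counting error only.

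The members and lists were chosen with earlier results of these data known. Genes were named by rule: the 15 higher DEGs of smallest p, both lower DEGs, the 10 other lower genes of smallest p, the 5 of highest level in each direction, called list members and up to 4 abundant members of a list. Other genes were named after their values were seen, and some genes that the rule names are not reported here. Ribosomal protein genes were taken by symbol. Older symbols were matched through RefSeq synonyms, and promoters came from RefSeq. Alternatives were DESeq2 size factors, TMM without the 20 most abundant genes, DESeq2 1.42.0, no filter, a mean of at least 1 CPM, only the libraries compared, a replicate block, glmTreat and leaving out each library. Library totals and removal of the length trend (20 bins) were added after seeing the data. The fit was tested on simulated data.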

Additional observations from a re-analysis of the deposited data

Results flagged for a closer look

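Of the genes named by rule or called, 44 that are given here changed differently from 8 to 16 weeks in NOR and BALB/c LGs. The test was of the difference itself (edgeR interaction, adjusted p of at most 0.05, 3 libraries per age and strain), and 8.01% of all genes tested passed it. Values are the log2 fold change in NOR minus that in BALB/c. Among immediate-early genes called in BALB/c NOR differed for Thbs1 by -4.27, Egr1 by -2.58, Arc by -4.12, Fos by -1.94, Cyr61 by -1.78, Maff by -2.0, Atf3 by -1.47, Ccl2 by -3.96, Ccl7 by -3.76, Jun by -1.59, Cxcl1 by -2.18, Errfi1 by -1.32 and Klf6 by -1.12. Among other genes higher at 16 weeks in BALB/c, NOR differed for Fgl2 by -1.58, Gp49a by -1.54, Tnfaip6 by -4.55, Tnfrsf12a by -3.28, Ptx3 by -3.76, Serpinb11 by -1.81, Timp3 by -1.22, Vegfa by -0.76, Vwf by -0.87, Eml5 by -0.87, Gins2 by -4.31, Ddx17 by -0.59, Baiap2l1 by -0.92, Col7a1 by -0.72, 4930565N06Rik by -2.41 and Gm4349 by -1.32. These genes were chosen for their change in the BALB/c libraries that enter the test. That choice largely set the direction and favoured passing, here and below, so the count of 44 is a description. Fosb, Egr2, Egr3, Plaur, Btg2, Dusp6 and Zfp36 were called in BALB/c too and did not pass.

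Genes lower at 16 weeks in BALB/c had differences above 0 that passed the test, Arpc5l by 0.57 and Gm9897 by 3.05, and among ribosomal protein genes Rps12 by 0.43, Rps3a by 0.55, Rps20 by 0.66, Rps7 by 0.48, Rps23 by 0.65, Rps27a by 0.71, Rpl12 by 0.62, Rps9 by 0.78, Rpl37 by 0.50, Rpl36 by 0.57, Rpl13 by 0.65, Rps15a by 0.63 and Rps24 by 0.65. The value of Gins2 rests on an 8-week BALB/c group with no count, and that of Gm9897 on 13 and 2 counts, so their sizes depend on the prior count. Groups of 3 libraries were too small to test for single outlying libraries.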

How the results depend on the processing

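The count of DEGs stayed between 48 and 78 under other scalings, filters, DESeq2 and a fit of only the libraries compared, against 59, but was 131 on library totals and 8 with glmTreat, which tests against 2-fold. Leaving out 1 library gave 33 to 56 DEGs. Without the fold cutoff, 236 genes became 393 under DESeq2 (211 higher, 182 lower), 600 with only the libraries compared (349 higher, 251 lower), 811 on library totals and 152 with the length trend removed (104 higher, 48 lower), and 64 to 180 without 1 library. The 381 genes whose change differed by at least 2-fold between the strains became 2 with glmTreat, 214 on library totals and 147 to 832 without 1 library, the highest without NOR 16-week replicate 1 and the lowest without NOR 16-week replicate 2. For shifts on library totals, where the median of all genes was 0.23, the scale itself differs; the cause of the other shifts was not tested. No count or called gene changed sign. Replicate numbers were not taken to pair the libraries. Same-numbered libraries correlated in their deviations at -0.21, 0.11 and -0.09, and those of unlike number at -0.25 to 0.35. With 3 libraries a group these values cannot exclude pairing or a shared batch. With the number as a replicate block 54 DEGs, 206 genes without the fold cutoff and 334 strain differences were found. Among results on single genes and lists, 3435 were unchanged, 581 lost the threshold and 205 moved. Where DESeq2 set an adjusted p aside as missing (14 values), no call was compared.

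Each group was 3 pools, so single pools carry much weight, and 24 of the 57 higher DEGs had a mean below 1 CPM at 8 weeks, where a few reads set the fold change. The labels give no time of day or processing batch, so these cannot be told apart from age. A gene that misses the threshold at this depth and n is not shown to be unchanged.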
